A study of Mastomys natalensis with 3 samples.

Results

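Glycolysis splits glucose into pyruvate in the cytosol and yields ATP without oxygen, and lactate dehydrogenase then turns pyruvate into lactate. Hexokinase phosphorylates glucose, phosphofructokinase commits the sugar to glycolysis, aldolase cuts it, and the later enzymes recover ATP. Many of these enzymes exist as isozymes that differ between tissues. The acid-secreting gastric mucosa is an energy-demanding tissue, and tumour cells often carry high levels of glycolytic enzymes.

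Transcripts of 9 glycolytic enzymes (Hk1, Pfkl, Aldoa, Aldoc, Gapdh, Pgk1, Eno1, Pkm and Ldha) were followed on 3 Affymetrix rat arrays. Members were all non-control probe sets whose only gene symbol in the platform annotation was one of these names. This gave 12 probe sets for 7 of the 9 genes, out of 7006 singly named probe sets for 4736 genes. Gapdh and Ldha had no such probe set. Each was listed together with related loci on 1 probe set, given below under the probe set's own name.

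The RNA came from Mastomys natalensis, an African rodent that is prone to gastric carcinoids, and from gastric cells enriched for enterochromaffin-like (ECL) cells, which store histamine. One array held cells of animals with a spontaneous ECL cell carcinoid, another held cells after 16 weeks of loxtidine and the last after 8 weeks of loxtidine. Loxtidine blocks the histamine H2 receptor that drives acid secretion. With 1 array per group, differences could not be tested and the values describe these arrays. No untreated group was analysed here, and the labels give neither the number of animals behind an array nor any pooling. The source field named gastric mucosa for the carcinoid and 16-week samples and ECL cells for the 8-week sample. In the comparisons with 8 weeks, this source cannot be told apart from group. The lot labels differed too, and lot cannot be told apart from group.

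Values are probe set intensities after quantile normalization, which gives each array the same distribution. The floor was the median normalized value of the non-control probe sets, 12.4. A fold is given where both arrays reached the floor, and "at least" marks a bound where only 1 did. Rat probes met Mastomys RNA, so each probe set was compared only with itself. The measurable error was the disagreement between probe sets of the same gene. On the log2 scale this spread was 0.62 over 457 genes for carcinoid against 16 weeks. It was 0.82 over 395 genes for carcinoid against 8 weeks and 0.79 over 410 genes for 16 against 8 weeks. It holds no variation between animals.

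The ECL label was checked against marker genes. Hdc, which makes histamine, lay below the floor on all 3 arrays, and Chga had no singly named probe set. The vesicular monoamine transporter Slc18a2 read 23.2 on the carcinoid array, 42.3 at 16 weeks and 21.7 at 8 weeks. Chgb, Cckbr and Syp were lower in carcinoid than at 8 weeks, also as deposited. The other listed genes did not share this. Slc18a2 was 1.07-fold higher (1.44-fold as deposited), and Sst was 1.06-fold lower (1.66-fold higher as deposited). Scg2 reached the floor at 16 weeks only. The granule protein Chgb read 17.7 on the carcinoid array, 35.4 at 16 weeks and 37.6 at 8 weeks. The gastrin receptor Cckbr read 35.3, 56.5 and 74.3 in that order, and the vesicle protein Syp read 26.7, 33.6 and 57.1. Genes of parietal cells (the proton pump subunit Atp4a) and chief cells (the pepsinogen Pgc) also lay above the floor on every array. Lipf, the other chief cell marker with a probe set, reached the floor on the carcinoid array only (21.2). Fewer cells of a type and less RNA per cell cannot be told apart in such samples.

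Of the 12 glycolytic probe sets, 5 differed by at least 2-fold in some comparison, bounds included. The share of all probe sets that did so in any comparison is not given here, so this count has no background. Shares for each comparison follow below. Aldoa was higher on the carcinoid and 16-week arrays than on the 8-week array, and Pfkl was lower at 16 weeks than on both other arrays. A probe set of Hk1 was higher in carcinoid than at 8 weeks, and a probe set of Eno1 was lower in carcinoid than at 8 weeks. A probe set of Aldoc was lower on both other arrays than at 8 weeks, as a bound. All told, 10 probe sets reached the floor on all 3 arrays and 2 on the 8-week array only. After normalization 6 probe sets read highest on the carcinoid array, 1 at 16 weeks and 5 at 8 weeks. In the values as deposited these counts were 8, 2 and 2. The matching shares over all probe sets are not given here. The median deposited value of all non-control probe sets was 13.9 on the carcinoid array, 13.1 at 16 weeks and 10.2 at 8 weeks.

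**Figure D1:**
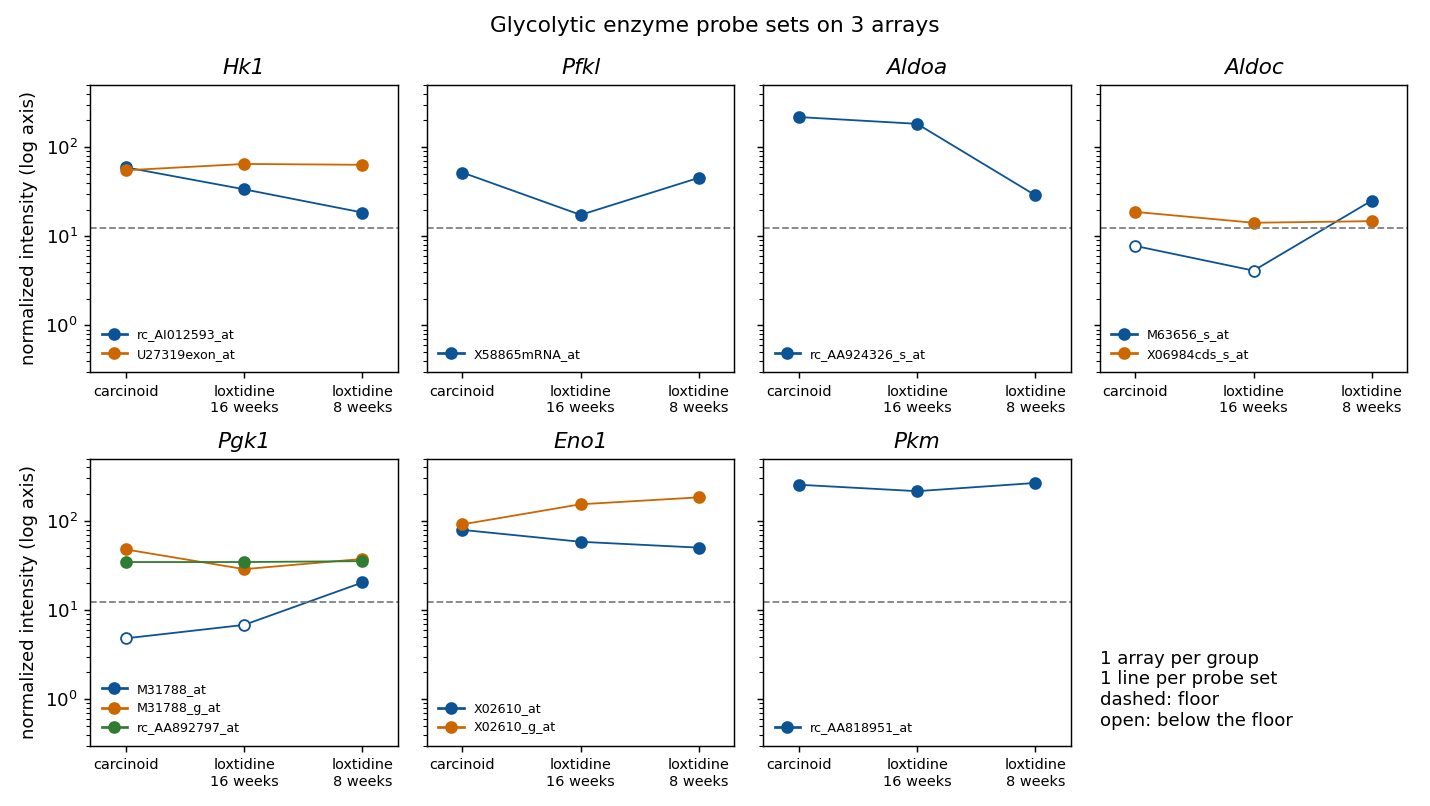
Normalized intensity (log axis) of each glycolytic enzyme probe set on the carcinoid, 16-week and 8-week arrays, 1 point per array and 1 line per probe set. The dashed line is the floor of 12.4, and open points lie below it. Aldoa reads 218 on the carcinoid array and 183 at 16 weeks, against 28.9 at 8 weeks, whereas Pkm reads between 216 and 267 on every array.

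Hexokinase 1, encoded by Hk1, phosphorylates glucose on entry into the pathway. Its probe set rc_AI012593_at read 59.4 on the carcinoid array, 33.7 at 16 weeks and 18.5 at 8 weeks. That is 3.22-fold higher in carcinoid than at 8 weeks, 1.76-fold higher than at 16 weeks, and 1.83-fold higher at 16 than at 8 weeks. Each of these differences (log2 1.69, 0.82 and 0.87) exceeded the spread between probe sets. The brighter Hk1 probe set, U27319exon_at, gave another picture, with 55.1 on the carcinoid array, 64.9 at 16 weeks and 63.5 at 8 weeks. It was 1.15-fold lower in carcinoid than at 8 weeks (1.36-fold higher as deposited), and the gap between the Hk1 probe sets in that comparison was 1.89 on the log2 scale. The Hk1 transcript thus has no settled direction on these arrays. Control probe sets for the 5' end, middle and 3' end of rat hexokinase read 2.6, 10.1 and 2.3 on the carcinoid array as deposited. They read 2.8, 5.6 and 3.3 at 16 weeks and 3.4, 11.1 and 1.3 at 8 weeks, so none stood out on any array.

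The liver-type phosphofructokinase, Pfkl, is a subunit of the enzyme that commits sugar to glycolysis. Its only probe set read 52 on the carcinoid array, 17.4 at 16 weeks and 45.4 at 8 weeks. Pfkl was 2.99-fold higher in carcinoid than at 16 weeks (log2 1.58), the 39th highest difference of 3311 probe sets measured on both arrays. It was 2.61-fold lower at 16 than at 8 weeks (log2 -1.38) and 1.15-fold higher in carcinoid than at 8 weeks. The 16-week array alone was therefore low, with a value close to the floor. With the floor raised to 30.0, Pfkl was at least 1.73-fold higher in carcinoid than at 16 weeks and at least 1.51-fold lower at 16 than at 8 weeks. The muscle-type subunit, Pfkm, did not share the dip. Its brightest probe set read 68.8 on the carcinoid array, 62.6 at 16 weeks and 56.6 at 8 weeks.

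Aldolase A, encoded by Aldoa, is the widely expressed aldolase and the form of muscle and red blood cells. Its only probe set read 218 on the carcinoid array, 183 at 16 weeks and 28.9 at 8 weeks, or 270.5, 197.7 and 23.3 as deposited. Aldoa was 7.54-fold higher in carcinoid than at 8 weeks (log2 2.91) and 6.32-fold higher at 16 than at 8 weeks (log2 2.66). These were the 7th highest difference of 3122 and the 15th highest of 3164 probe sets measured on both arrays. Carcinoid and 16 weeks were close, at 1.19-fold higher in carcinoid, which is within the spread between probe sets. The 2 differences share the 8-week array, which alone was low. With the floor at 30.0 the bounds were 7.25-fold and 6.08-fold. The suffix of this probe set (_s_at) marks probes that can match related sequences, and no further singly named Aldoa probe set was there to set beside it.

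Marker genes of other cells were set beside the low Aldoa value of the 8-week array. The smooth muscle markers summed to 174 on the carcinoid array, 137 at 16 weeks and 57 at 8 weeks, with 4, 4 and 2 of 7 genes at or above the floor. Tagln did not follow the sum and reached the floor at 8 weeks only. It read 11.2, 10.3 and 13.9 in that order (12.6, 11 and 11.3 as deposited). Des and Tpm2 lay below the floor on every array. The erythroid markers, 3 of 5 with a probe set, summed to 186, 153 and 180 in that order (219, 165 and 134 as deposited). The skeletal and cardiac muscle markers summed to 105, 159 and 150 over 7 genes. The fibroblast sum went the other way, with 406, 451 and 1321 over 5 genes, and Dcn gave most of the 8-week sum (1090). Col1a1 and Col3a1 also read highest at 8 weeks, but as deposited Col1a1 was 1.2-fold higher in carcinoid than at 8 weeks. Fn1 reached the floor on the carcinoid array only (23), and Vim lay below it on every array. The leukocyte markers, 4 of 6 with a probe set, summed to 15, 36 and 94, with 0, 2 and 4 genes at or above the floor. Of the mucous cell markers, the gastric mucin Muc5ac read 213 on the carcinoid array, 168 at 16 weeks and 15.8 at 8 weeks, 13.4-fold and 10.6-fold higher than at 8 weeks. The other mucous markers did not repeat this. Tff2 read 65.6, 19.3 and 44.8 in that order, Tff1 1213, 831 and 1124, and Muc1 110, 119 and 98.8. Tff2 was thus 2.32-fold lower at 16 than at 8 weeks. The 4 mucous markers together summed to 1601, 1137 and 1283. The part of these cells in the Aldoa difference was not tested.

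Aldolase C, encoded by Aldoc, is the form best known from brain. Probe set X06984cds_s_at read 18.8 on the carcinoid array, 14.2 at 16 weeks and 14.8 at 8 weeks, all just above the floor and within the spread. Probe set M63656_s_at read 7.8 in carcinoid and 4.12 at 16 weeks, both below the floor, against 25.2 at 8 weeks. It was therefore at least 2.04-fold lower on each of those arrays than at 8 weeks. The Aldoc probe sets did not share a direction, and neither repeated the pattern of Aldoa.

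Phosphoglycerate kinase 1, encoded by Pgk1, makes ATP in the lower part of the pathway. The EST probe set rc_AA892797_at read 34.6 on the carcinoid array, 34.6 at 16 weeks and 35.4 at 8 weeks. Probe set M31788_g_at read 47.9, 28.8 and 37.5 in that order, 1.67-fold higher in carcinoid than at 16 weeks and 1.28-fold higher than at 8 weeks. The difference from 16 weeks (log2 0.74) lay just outside the spread, and the EST probe set did not show it. A further probe set from the same sequence, M31788_at, reached the floor at 8 weeks only (4.82 in carcinoid, 6.82 at 16 weeks and 20.4 at 8 weeks).

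Enolase 1, encoded by Eno1, makes phosphoenolpyruvate. Its probe sets, both named after the same sequence record, differed in opposite directions in carcinoid against 8 weeks, also as deposited. X02610_at read 79.4 on the carcinoid array, 58.4 at 16 weeks and 50.2 at 8 weeks, 1.58-fold higher in carcinoid than at 8 weeks. X02610_g_at, the brighter, read 91.6, 154 and 184 in that order, 2.01-fold lower in carcinoid than at 8 weeks and 1.68-fold lower than at 16 weeks. The gap between them was 1.67 on the log2 scale for carcinoid against 8 weeks and 1.20 for carcinoid against 16 weeks. No direction can be given for Eno1.

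Pyruvate kinase M, encoded by Pkm, makes pyruvate and ATP, and one of its splice forms is common in tumours. Which splice forms this probe set reads was not analysed here. Pkm read 255 on the carcinoid array, 216 at 16 weeks and 267 at 8 weeks, so all differences were at most 1.24-fold and within the spread. The scaling decides this result. As deposited, Pkm read 325, 237.2 and 173.6, and carcinoid was 1.87-fold higher than 8 weeks.

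**Figure D2:**
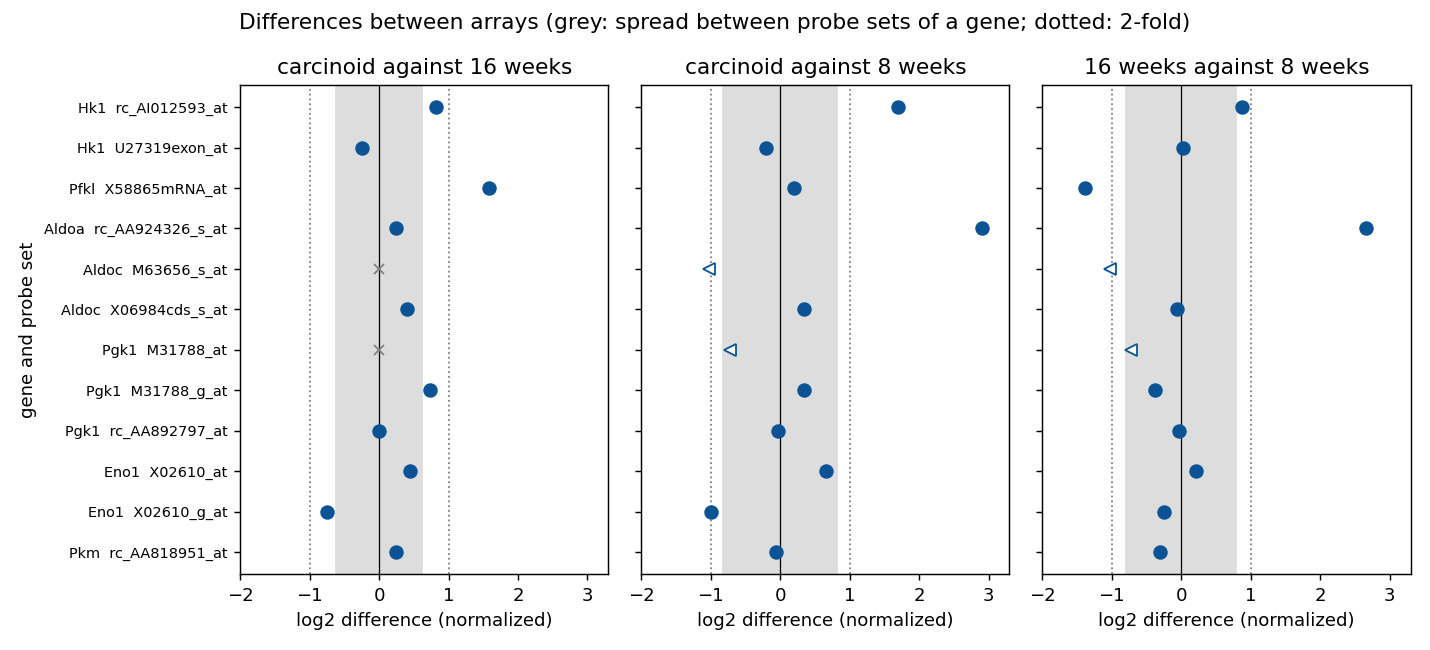
Log2 differences of the 12 glycolytic probe sets for carcinoid against 16 weeks, carcinoid against 8 weeks and 16 against 8 weeks. Filled points were measured on both arrays, open triangles are bounds, crosses mark no value, the grey band is the spread between probe sets of a gene and the dotted lines are 2-fold. Aldoa lies far to the right at 2.91 and 2.66 in both comparisons with the 8-week array and at 0.25 between carcinoid and 16 weeks.

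Counts over the members were set against all probe sets. For carcinoid against 16 weeks, 1 of the 10 member probe sets measured on both arrays was at least 2-fold higher (Pfkl) and 0 were at least 2-fold lower, against 6.98% and 6.28% of all 3311 measured probe sets. For carcinoid against 8 weeks, 2 of 10 were at least 2-fold higher (Aldoa and 1 Hk1 probe set) and 1 lower (1 Eno1 probe set), against 11.8% and 11.3% of 3122. For 16 against 8 weeks, 1 of 10 was at least 2-fold higher (Aldoa) and 1 lower (Pfkl), against 10.8% and 9.89% of 3164. As deposited, the counts were 1 higher and 0 lower of 10 for carcinoid against 16 weeks (9.53% and 5.85% of all), 3 and 0 of 9 for carcinoid against 8 weeks (25.4% and 3.63%) and 2 and 0 of 9 for 16 against 8 weeks (19.7% and 3.97%). With so few probe sets, 1 probe set more or less moves a count from below to above its background share. The Aldoc probe set M63656_s_at adds a bound of at least 2-fold lower in each comparison with 8 weeks. Such bounds were 35.2% (carcinoid) and 34.9% (16 weeks) of the probe sets that reached the floor at 8 weeks but not on the array compared with it.

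The median log2 difference of the 10 measured member probe sets was 0.33 for carcinoid against 16 weeks, against 0.01 over all measured probe sets. It was 0.27 against -0.04 for carcinoid against 8 weeks, and -0.05 against -0.01 for 16 against 8 weeks. As deposited, 10, 9 and 9 member probe sets were measured, with medians of 0.47, 0.90 and 0.45, against 0.10, 0.45 and 0.39 over all probe sets. The scaling thus moved the members together with the rest of the array.

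**Figure D3:**
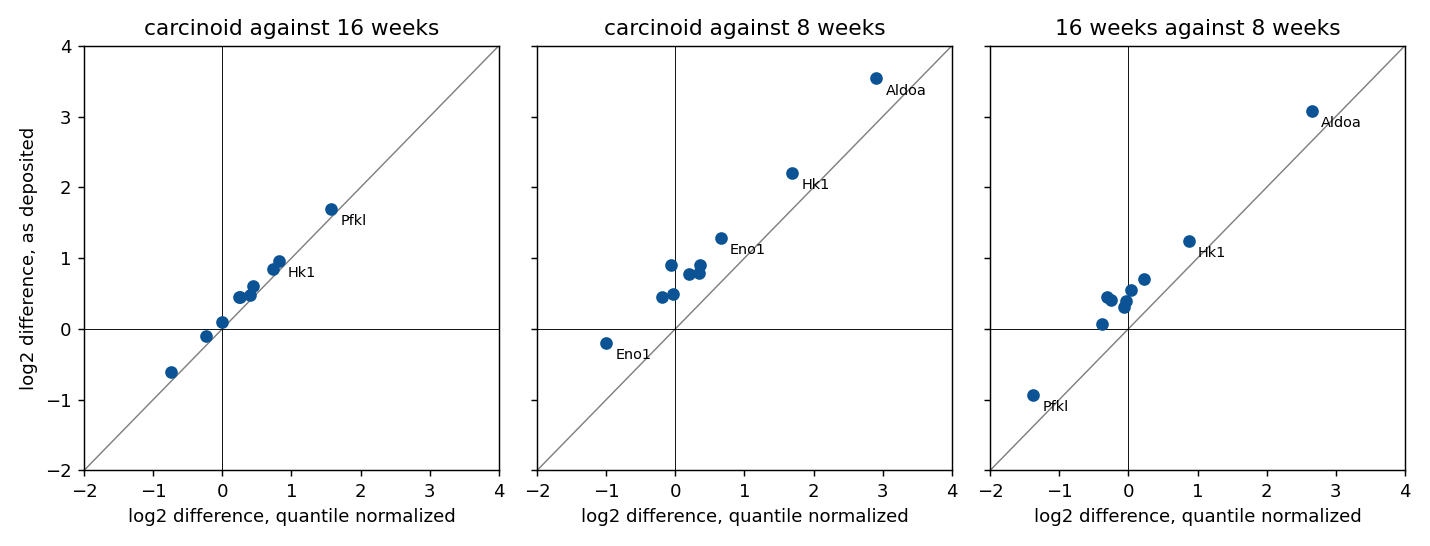
Log2 differences of the member probe sets measured on both arrays, after quantile normalization (horizontal) and as deposited (vertical), for the 3 comparisons. Points on the diagonal have equal values. Points lie above it in the comparisons with the 8-week array, where the median of all probe sets was 0.45 (carcinoid) and 0.39 (16 weeks) as deposited, and Aldoa and Pfkl keep their direction on both axes.

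Glyceraldehyde-3-phosphate dehydrogenase, the product of Gapdh, makes the NADH of the pathway, and lactate dehydrogenase A, the product of Ldha, makes lactate. Probe set M17701_s_at, annotated to 3 symbols of the Gapdh family, read 278 on the carcinoid array, 245 at 16 weeks and 125 at 8 weeks. It was 2.23-fold higher in carcinoid and 1.96-fold higher at 16 weeks than at 8 weeks. Probe set M54926_at, annotated to 2 symbols of the Ldha family, read 93.9, 72.4 and 53 in that order, 1.77-fold and 1.36-fold higher than at 8 weeks. Both read lowest at 8 weeks, as Aldoa did, but the gene behind either signal is uncertain.

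The array's control probe sets along the rat GAPDH transcript were read by their position. The 3' control read 594 on the carcinoid array, 492 at 16 weeks and 492 at 8 weeks, nearly level after normalization (792.7, 520.4 and 333.8 as deposited). The middle control read 452, 508 and 180 in that order, 2.51-fold higher in carcinoid and 2.82-fold higher at 16 weeks than at 8 weeks. The 5' control read 270, 340 and 48.2, which is 5.6-fold and 7.07-fold higher than at 8 weeks. The 8-week difference of the same transcript thus grew from the 3' end to the 5' end. The deposited 3' reading over the 5' reading was 2.31 in carcinoid, 1.43 at 16 weeks and 8.95 at 8 weeks. The position of the Aldoa, Hk1, Gapdh-family and other probes along their Mastomys transcripts was not analysed here. The part of such a gradient in the Aldoa difference, or in any other difference from the 8-week array given here, was not tested.

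**Figure D4:**
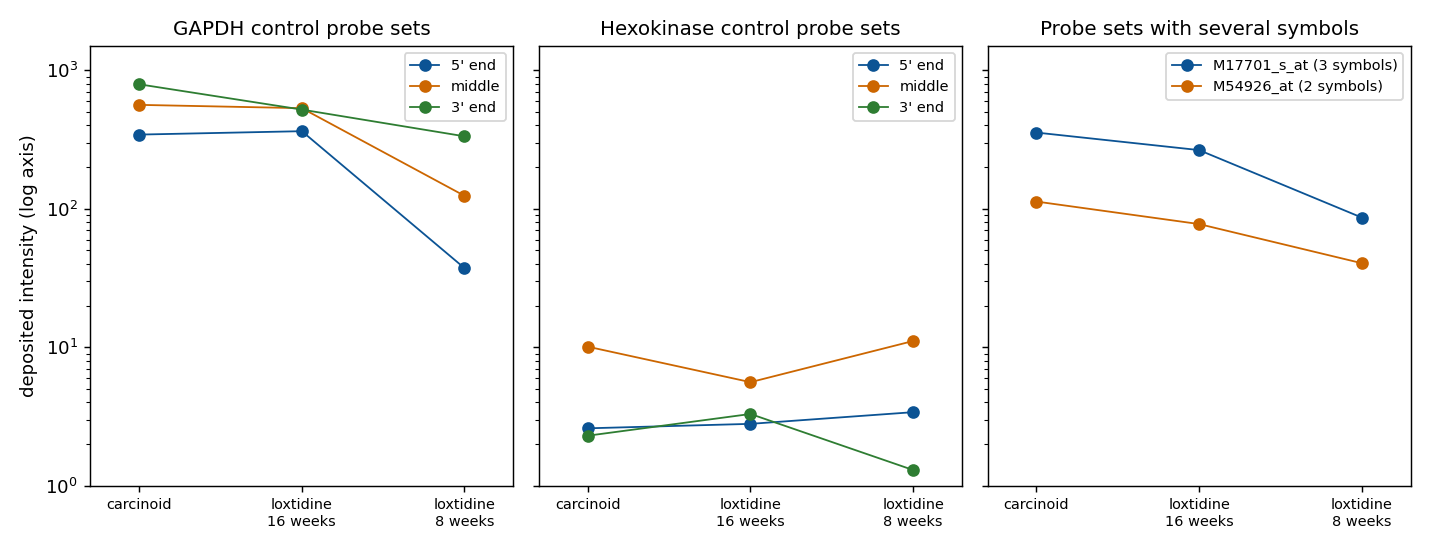
Deposited intensity (log axis) on the carcinoid, 16-week and 8-week arrays of the GAPDH controls, the hexokinase controls and the probe sets with several symbols. The GAPDH controls fan out at 8 weeks, where the 5' end reads 37.3 and the 3' end 333.8, and the hexokinase controls read 11.1 or less on every array.

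Genes with a pattern most like that of Aldoa were sought by the distance between mean-centred log2 values over the 3 arrays, on the brightest probe set of each gene above the floor on all arrays. The nearest were the ubiquitin-conjugating enzyme Cdc34 (distance 0.21), the peroxisomal ATPase Pex6 (0.26), the glutathione transferase Gsto1 (0.29), the tetraspanin Cd63 (0.33) and the proteasome subunit Psmb4 (0.38). On that probe set they were 5.14-fold to 8.13-fold higher at 16 than at 8 weeks. Other probe sets of these genes were mixed. At 16 against 8 weeks, a second Pex6 probe set was at least 2.77-fold higher and a second Psmb4 probe set 2.09-fold higher. The other Cdc34 probe sets were 2.01-fold and 1.44-fold lower, the other Gsto1 probe set at least 1.17-fold lower, and a further Psmb4 probe set 1.24-fold lower (1.14-fold higher as deposited). In carcinoid against 8 weeks, that Gsto1 probe set was 4.76-fold higher and the second Pex6 probe set at least 4.32-fold higher. The other Cdc34 and Psmb4 probe sets lay between 1.06-fold lower and 1.42-fold higher there. With 3 arrays, such likeness says little.

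The other pathway genes, 70 in all, came from lists of glucose metabolism and of targets of hypoxia-inducible factors outside glycolysis. Of these, 48 had a singly named probe set. The list of targets, which also holds the factor subunit gene Hif1a, made up 10 of the 70 and 8 of the 48. On the brightest probe set of each gene, 2 of 24 measured genes were at least 2-fold higher and 2 lower in carcinoid than at 16 weeks, against 6.74% and 5.62% of all genes. For carcinoid against 8 weeks, 0 of 21 were higher and 1 lower, against 10.7% and 11.2%. For 16 against 8 weeks, 1 of 21 was higher and 3 lower, against 10.4% and 10.1%. No list had more than 2 measured genes past 2-fold in 1 direction.

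Of 18 further glycolytic enzymes and isozymes, 9 had a probe set and none that was measured on both arrays differed by 2-fold. The phosphoglycerate mutase Pgam1 read 296 on the carcinoid array, 378 at 16 weeks and 317 at 8 weeks on its brightest probe set. Ldhb, the heart-type lactate dehydrogenase, read 86.1, 120 and 143 in that order, 1.66-fold lower in carcinoid than at 8 weeks but 1.06-fold higher as deposited, so its direction depends on the scaling. Hk2, the inducible hexokinase, read 41.8, 46.4 and 53. The liver and red cell pyruvate kinase Pklr reached the floor at 16 weeks alone, at least 2.38-fold higher than at 8 weeks. The muscle mutase Pgam2 was at least 2.78-fold lower in carcinoid than at 8 weeks.

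Glucose transporters showed differences in both directions. Slc2a1, the widespread basal transporter, read 132 on the carcinoid array, 70.3 at 16 weeks and 203 at 8 weeks, 2.89-fold lower at 16 than at 8 weeks. As deposited it read 161.9, 74.7 and 135.9 in that order, 1.82-fold lower at 16 than at 8 weeks and highest in carcinoid. The other Slc2a1 probe set was 1.64-fold higher in carcinoid than at 8 weeks, where the brightest was 1.54-fold lower. Slc2a3, a high-affinity transporter, was 2.04-fold higher at 16 than at 8 weeks and 2.21-fold lower in carcinoid than at 16 weeks. Slc2a4, the insulin-responsive transporter, was 2.25-fold lower at 16 than at 8 weeks on its brightest probe set but 1.68-fold higher on the other. Slc2a5, which carries fructose, was 2.67-fold lower in carcinoid than at 16 weeks. The lactate exporter Slc16a3 was 2.06-fold higher in carcinoid than at 16 weeks, and its partner Bsg differed by at most 1.26-fold.

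Among regulators and branches, Pfkfb1, which sets the level of the phosphofructokinase activator, was at least 4.65-fold lower at 16 than at 8 weeks on its brightest probe set and 1.25-fold higher on another. Pyruvate carboxylase, Pc, which feeds gluconeogenesis and the citric acid cycle, read 51.1 on the carcinoid array, 32.5 at 16 weeks and 2.05 at 8 weeks. It was at least 4.13-fold higher in carcinoid and at least 2.63-fold higher at 16 weeks than at 8 weeks. For its second probe set these bounds were 2.19-fold and 1.87-fold. The fructose bisphosphatase Fbp2 was at least 2.77-fold higher in carcinoid than at 8 weeks. Dlat, a pyruvate dehydrogenase subunit, was 2.27-fold lower in carcinoid than at 8 weeks, with 97.4 on the carcinoid array, 176 at 16 weeks and 222 at 8 weeks. As deposited it was 1.24-fold lower. Of its other probe sets, 1 gave a bound of 1.15-fold higher and 1 a bound of 1.29-fold lower in carcinoid than at 8 weeks. Pgm1, which links glycogen to glycolysis, was 2.27-fold lower at 16 than at 8 weeks on its brightest probe set (1.56-fold as deposited), while another gave a bound of 2.4-fold higher.

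**Figure D5:**
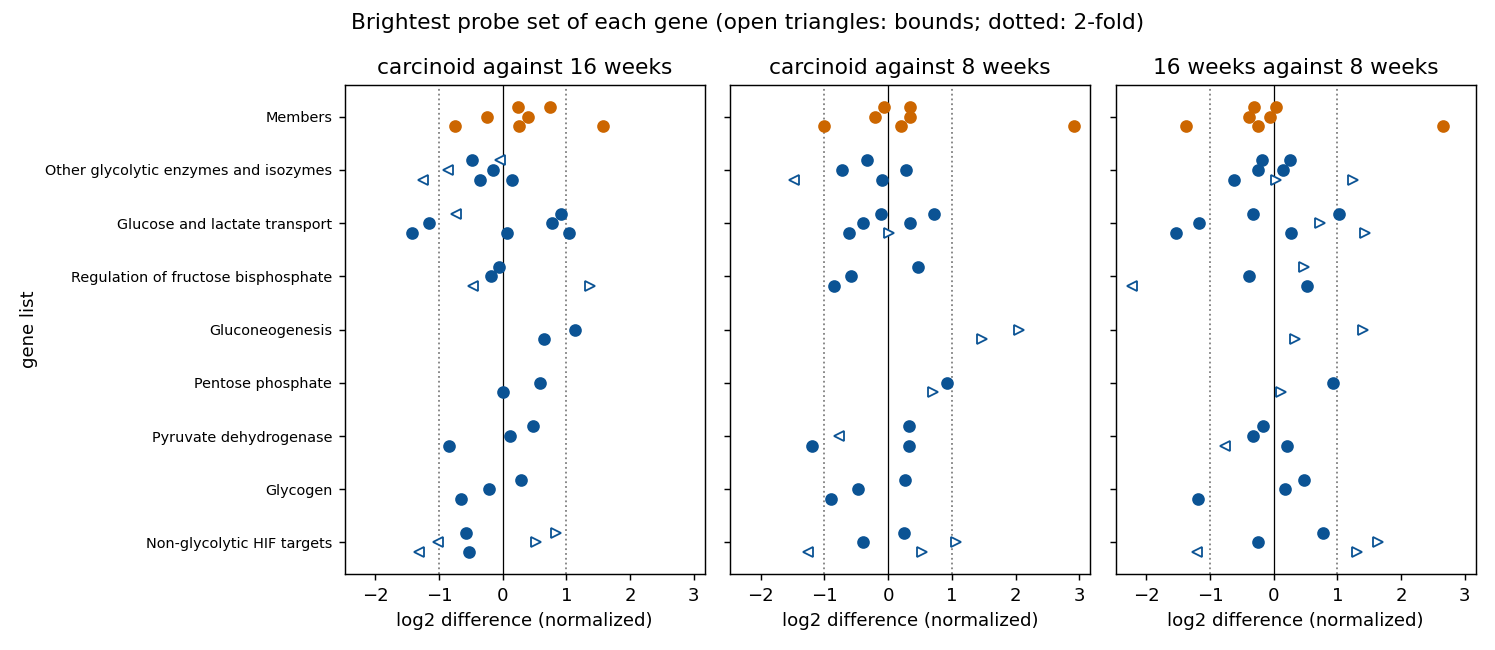
Log2 difference of the brightest probe set of each gene, by gene list, for the 3 comparisons. Filled points were measured on both arrays, open triangles are bounds and dotted lines are 2-fold. The 7 members are in orange, and Aldoa stands to the right of all other points in both comparisons with the 8-week array.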

How the data were processed

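RNA of 3 Mastomys samples was hybridised to Affymetrix rat U34 arrays, per the labels. The table of intensity values was deposited by the authors with 1 linear value per probe set and array. The algorithm, background correction, scaling and detection calls are not given in the sources used here. Arrays have no depth, and their number limits the precision. Groups came from the sample descriptions.

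The 3 arrays (8799 probe sets, 59 of them controls) were quantile-normalized together, with ties averaged. Values below the floor were raised to it before log2. The floor was the median of the values of 8740 non-control probe sets, pooled over the 3 arrays (12.4). Of these probe sets 7006 had 1 symbol, 308 several and 1426 none. Genes were represented by their brightest probe set (mean of the deposited values). The spread between probe sets is the root mean square difference of the log2 differences of a gene's 2 brightest measured probe sets, divided by the square root of 2. No test between groups was possible with 1 array each. Every member probe set is named, as are other listed genes at least 2-fold apart on their brightest probe set, and the 5 genes nearest to Aldoa. Members and lists were chosen with earlier results of these data known. Alternatives were the deposited values, median scaling, floors at the 25th (4.19) and 75th (30.0) percentiles, log2 of the value plus the floor, and the median of a gene's probe sets. Normalizing without the 8-week array was added after seeing the data. The steps were tested on simulated data. Python 3.11.15, numpy 2.4.6 and pandas 2.3.3 were used.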

Additional observations from a re-analysis of the deposited data

How the results depend on the processing

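No paired analysis was possible because each group had 1 array. Of 130 recomputed log2 differences of the 7 members, 126 moved by less than the spread between probe sets, 4 moved by more and 0 of those called 2-fold apart changed sign. The 4 were Pkm (0.90 as deposited), Eno1 (-0.17) and Hk1 (0.74) with the median of the gene's probe sets, each for carcinoid against 8 weeks, and Pfkl for carcinoid against 16 weeks (0.79, a bound, with the floor at 30.0). Some of the 126 could not move. The brightest probe set of each member reached the main floor on all arrays, so the floor at the 25th percentile changed none. The median of the gene's probe sets changed nothing for Aldoa, Pkm and Pfkl, which have 1 probe set each. Sign changes also occurred among the 126. For 16 against 8 weeks, Pkm went from -0.31 to 0.45 as deposited and Eno1 from -0.25 to 0.41. Aldoa was 5.58-fold to 11.6-fold higher in carcinoid and 4.73-fold to 8.48-fold higher at 16 weeks than at 8 weeks over the alternatives.

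Counts of members at least 2-fold apart depended on the scaling and the floor. As deposited, 16 against 8 weeks had 2 higher and 0 lower, and carcinoid against 8 weeks 0 lower. Scaling to the same median also gave 0 lower for carcinoid against 8 weeks, for the members and for the other pathway genes. The lower floor of 4.19 gave 2 lower and 3 lower in those comparisons, since dim values then counted as measured. With the floor at 30.0 there were 0 higher and 0 lower for 16 against 8 weeks, and 0 higher in both carcinoid comparisons, because values under it became bounds. Without a filter, on the log2(value + floor) scale, carcinoid against 8 weeks had 0 lower.

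For the other pathway genes, 16 against 8 weeks had 3 higher and 0 lower as deposited, 5 higher and 5 lower with the lower floor, 0 higher with the higher floor and 6 higher without a filter. Carcinoid against 8 weeks had 4 higher and 0 lower as deposited, 2 higher and 2 lower with the lower floor, and 4 higher and 3 lower without a filter. Carcinoid against 16 weeks had 4 higher and 7 lower with the lower floor, 0 and 0 with the higher floor and 0 higher without a filter. Normalizing without the 8-week array, an alternative chosen after seeing the data, left the counts for carcinoid against 16 weeks as they were. Values close to the floor of 12.4 cannot be safely told from background.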

Other observations

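Targets of hypoxia-inducible factors outside glycolysis were listed beside the enzymes, because the same factors induce many glycolytic genes. The list also held Hif1a, which encodes a subunit of such a factor. Of 10 genes 8 had a singly named probe set, and in each comparison 2 of them were measured on both arrays and 0 of these differed by 2-fold on the brightest probe set. The angiogenic factor Vegfa read 61 on the carcinoid array, 88.1 at 16 weeks and 51.4 at 8 weeks on its brightest probe set. A second Vegfa probe set was 2.01-fold higher at 16 than at 8 weeks and at least 2.98-fold lower in carcinoid than at 16 weeks, and another was at least 3.43-fold higher at 16 than at 8 weeks. At 16 against 8 weeks, the transferrin receptor Tfrc was at least 3.12-fold higher, haem oxygenase Hmox1 at least 2.47-fold higher and the peptide hormone Adm at least 2.32-fold lower. Endothelin, Edn1, was at least 2.39-fold lower in carcinoid than at 8 weeks. The list had no common direction.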
